A study of Mus musculus with 24 samples.

Results

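The mouse microRNAs (miRNAs) mmu-miR-15a-5p, mmu-miR-15b-5p, mmu-miR-16-5p, mmu-miR-195a-5p and mmu-miR-497a-5p, named from here on without the species prefix, share a seed and are made from precursors at separate places in the mouse genome. The members were chosen by name, 5 of the 1009 miRNAs listed for the mouse mammary gland. Small RNA was sequenced from whole-gland homogenates of 24 female C57BL/6 mice, a library from each, in 4 groups of 6. W10 mice were adults of 10 weeks, P18 mice were at day 18 of pregnancy, Lac7 mice at day 7 of lactation and Inv3 mice at day 3 of involution, the regression of the gland after weaning. The ages of the P18, Lac7 and Inv3 mice were not given in the sources used here, and the labels name no treatment. The study's methods name the abdominal and inguinal glands, while the design text names the inguinal glands alone and swaps the days of lactation and involution. The days of the library labels, which are those of the paper, were used. The study asked which miRNAs vary between the stages. In whole glands, fewer cells of a type and less miRNA per cell cannot be told apart.

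A miRNA pairs with messenger RNAs mainly through its seed, bases 2 to 8, so miRNAs with one seed can act on overlapping sets of targets. The miR-15 and miR-16 family is known for repressing cyclins of the D and E types, CDK6 and the survival factor BCL2, and for slowing the cell cycle. miR-15a and miR-16 were linked to cancer through deletion of their locus in chronic lymphocytic leukaemia, and miR-195 and miR-497 rise as heart muscle cells of newborn mice stop dividing. The mammary gland builds its secretory epithelium by cell division in pregnancy and loses it by cell death at involution.

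The mature sequences, from RefSeq for GRCm38.p6, are printed to show what the 5 miRNAs share. They run 5′ to 3′, with the seed in capitals.
miR-15a-5p: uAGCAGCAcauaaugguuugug
miR-15b-5p: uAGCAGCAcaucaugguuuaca
miR-16-5p: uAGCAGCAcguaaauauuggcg
miR-195a-5p: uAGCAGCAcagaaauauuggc
miR-497a-5p: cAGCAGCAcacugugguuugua
miR-322-5p: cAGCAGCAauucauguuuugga
The last is the only other well-measured miRNA of the table with this seed. After base 8, where the seed ends, miR-16-5p and miR-195a-5p had the same base at 11 of 13 positions, and miR-15a-5p and miR-15b-5p at 10 of 14. miR-497a-5p was closer to miR-15a-5p, with 10 of 14 identical positions, than to miR-195a-5p, with 5 of 13, although Mir195a is its neighbour in the genome. miR-16-5p and miR-497a-5p were the least alike of the members there, with 4 of 14. Over the table, 854 of 1009 names matched a RefSeq mature name, all 5 members included. In RefSeq, 10 mature miRNAs held the seed, of which miR-322-5p and miR-195b were the only non-members in the table; miR-6342, miR-6353 and miR-6419 were not analysed here.

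The precursors lie in 3 pairs on 3 chromosomes of GRCm38. Mir15a (chr14:61632027-61632110, minus strand) lies in an intron of the long non-coding gene Dleu2, and Mir16-1 (chr14:61631880-61631972, minus strand) overlaps an exon of it, with 54 bases between them. Mir15b (chr3:69009772-69009835, plus strand) and Mir16-2 (chr3:69009902-69009996, plus strand) lie 66 bases apart in an intron of Smc4, a subunit gene of condensin, which compacts chromosomes at cell division. Mir497 (chr11:70234717-70234800, plus strand) and Mir195a (chr11:70235042-70235135, plus strand) lie 241 bases apart with no host gene, and Mir497b overlaps Mir497 on the other strand. The mature miR-16-5p is the same from both of its genes, so its values are the sum of chromosomes 14 and 3. miR-16-5p and miR-195a-5p differ at few positions, and whether reads of one were assigned to the other was not tested.

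Values are in RPM, reads per 1000000 reads assigned to any listed miRNA. limma was run on the 544 miRNAs that averaged 1 RPM or more at any stage, all 5 members among them. The libraries held 660346 to 1165321 reads, with the lowest median, 693166, at Lac7. A count of 0 therefore allowed up to 2.57 to 4.54 RPM (3 reads), and the lowest count of any member in a library was 186 reads, so counting error is small beside the spread between mice. Mouse 6 of P18 stood apart with 2062 RPM of the liver miRNA miR-122-5p. The 3 skeletal muscle miRNAs summed to 104 to 22910 RPM over the libraries. Their mean sums were 10880, 954, 1996 and 366 RPM in the order W10, P18, Lac7, Inv3. The lowest W10 mouse had 2308 RPM. The highest P18, Lac7 and Inv3 mice had 2370, 4843 and 908. All 3 were lower at Inv3 than at W10, and miR-133a-3p also at P18 and Lac7 (limma adjusted p from 3.59e-05 to 0.000654). Against W10, miR-1a-3p was also lower at P18 (log2 -3.33, limma adjusted p = 0.00367) and miR-206-3p at Lac7 (log2 -2.195, 0.0201). miR-1a-3p at Lac7 and miR-206-3p at P18 did not pass (limma adjusted p = 0.0540 and 0.0827). The part of muscle in the differences from W10 was not tested. RPM is a share of the reads, and the median log2 fold change over all tested miRNAs was not 0. It was -0.32 for P18 against W10, -0.34 for Lac7 against P18, 0.28 for Inv3 against Lac7, -0.66 for Lac7 against W10, -0.41 for Inv3 against W10 and -0.11 for Inv3 against P18. Scaling by DESeq2 size factors, which centre on the typical miRNA, brought these medians to -0.12, -0.14, 0.18, -0.31, -0.10 and -0.01. Levels are given in RPM. For the 5 members the size factor scale is named where it changed the order of the stages, an overlap or a call. For other miRNAs it is named for some results only, and miRNAs that mark cell types are given in RPM alone.

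The family took a large share of the gland's miRNA reads, most of it miR-16-5p. The 5 members together held 12.9% of the W10 reads, 11.6% of the P18 reads, 6.97% of the Lac7 reads and 10.0% of the Inv3 reads. The highest Lac7 mouse, at 7.51%, lay below the lowest mouse of the other stages, at 8.95%. With size factors the Lac7 sums still lay below all P18 sums and overlapped those of W10 and Inv3. miR-16-5p made up 90.3% ± 1.57, 90.0% ± 0.837, 91.0% ± 0.424 and 91.5% ± 1.86 of the family sum at W10, P18, Lac7 and Inv3 (SD, n = 6). It was the most abundant of all listed miRNAs at W10, ranked 3 at P18, 5 at Lac7 and 2 at Inv3.

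miR-16-5p ran from 102295 to 126502 RPM at W10 (median 117721) and from 94342 to 115301 at P18 (median 103888). At Lac7 it ran from 58956 to 68485 RPM (median 63462) and at Inv3 from 79632 to 107348 (median 91300). The 6 Lac7 mice lay below every mouse of the other stages, while W10, P18 and Inv3 overlapped. The means were 116382 ± 7951, 104628 ± 7722, 63494 ± 3461 and 91529 ± 9890 RPM (SD, n = 6), so that the order was W10, P18, Inv3, Lac7. With size factors the order was P18, Inv3, W10, Lac7, and the Lac7 mice lay below all P18 mice but overlapped W10 and Inv3. Neighbours in the RPM order did not pass the test at W10 and P18 (limma adjusted p = 0.160) or at P18 and Inv3 (0.101), and did at Inv3 and Lac7 (1.92e-05).

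miR-195a-5p, which differs from miR-16-5p by few bases, had the same order of stages in RPM at a lower level. It ran from 5451 to 7490 RPM at W10 (median 5992), from 4960 to 6050 at P18 (median 5400), from 2563 to 3331 at Lac7 (median 2988) and from 3256 to 6476 at Inv3 (median 4516). Lac7 lay below W10 and P18 with no overlap, and the lowest Inv3 mouse, mouse 6, fell inside the Lac7 range. The means were 6158 ± 714, 5383 ± 399, 2989 ± 286 and 4557 ± 1116 RPM (SD, n = 6), and again Inv3 against Lac7 was the neighbouring pair that passed the test. With size factors its order was P18, W10, Inv3, Lac7, which is not that of miR-16-5p, and Lac7 again lay below W10 and P18 with no overlap.

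miR-15b-5p, from the Smc4 locus, had its highest mean in pregnancy and its lowest at involution. It ran from 1880 to 4680 RPM at W10 (median 3837) and from 3717 to 5416 at P18 (median 4516). It ran from 1987 to 2534 RPM at Lac7 (median 2362) and from 1668 to 2896 at Inv3 (median 1712). P18 had no overlap with Lac7 or Inv3. W10 was the widest group, with mouse 1 at 1880 RPM and the next, mouse 3, at 3189. At Inv3, 4 mice lay between 1668 and 1733 RPM and mice 1 and 2 at 2559 and 2896. The means were 3581 ± 969, 4553 ± 677, 2296 ± 216 and 2039 ± 544 RPM (SD, n = 6), in the order P18, W10, Lac7, Inv3.

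miR-497a-5p varied most between stages. It ran from 1056 to 2295 RPM at W10 (median 1695), from 660 to 1386 at P18 (median 810), from 261 to 497 at Lac7 (median 397) and from 670 to 1496 at Inv3 (median 1023). Every Lac7 mouse lay below every mouse of the other stages, on both scales, and W10, P18 and Inv3 overlapped. The means were 1734 ± 450, 909 ± 260, 397 ± 82.2 and 1044 ± 332 RPM (SD, n = 6), a span of 4.37-fold from Lac7 to W10. The spans of miR-15b-5p, miR-195a-5p, miR-16-5p and miR-15a-5p between their lowest and highest stage were 2.23-, 2.06-, 1.83- and 1.64-fold. With size factors the span of miR-497a-5p was 2.96-fold.

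miR-15a-5p was the flattest of the family. It ran from 658 to 1156 RPM at W10 (median 933), from 677 to 1040 at P18 (median 727), from 466 to 617 at Lac7 (median 572) and from 714 to 968 at Inv3 (median 827). In RPM the Lac7 mice again lay below all others, and the remaining stages overlapped widely. The means were 918 ± 194, 803 ± 148, 560 ± 58.7 and 829 ± 83.7 RPM (SD, n = 6). With size factors the stages spanned 1.32-fold, their order was Inv3, P18, W10, Lac7, and the Lac7 mice overlapped each of the other stages.

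**Figure D1:**
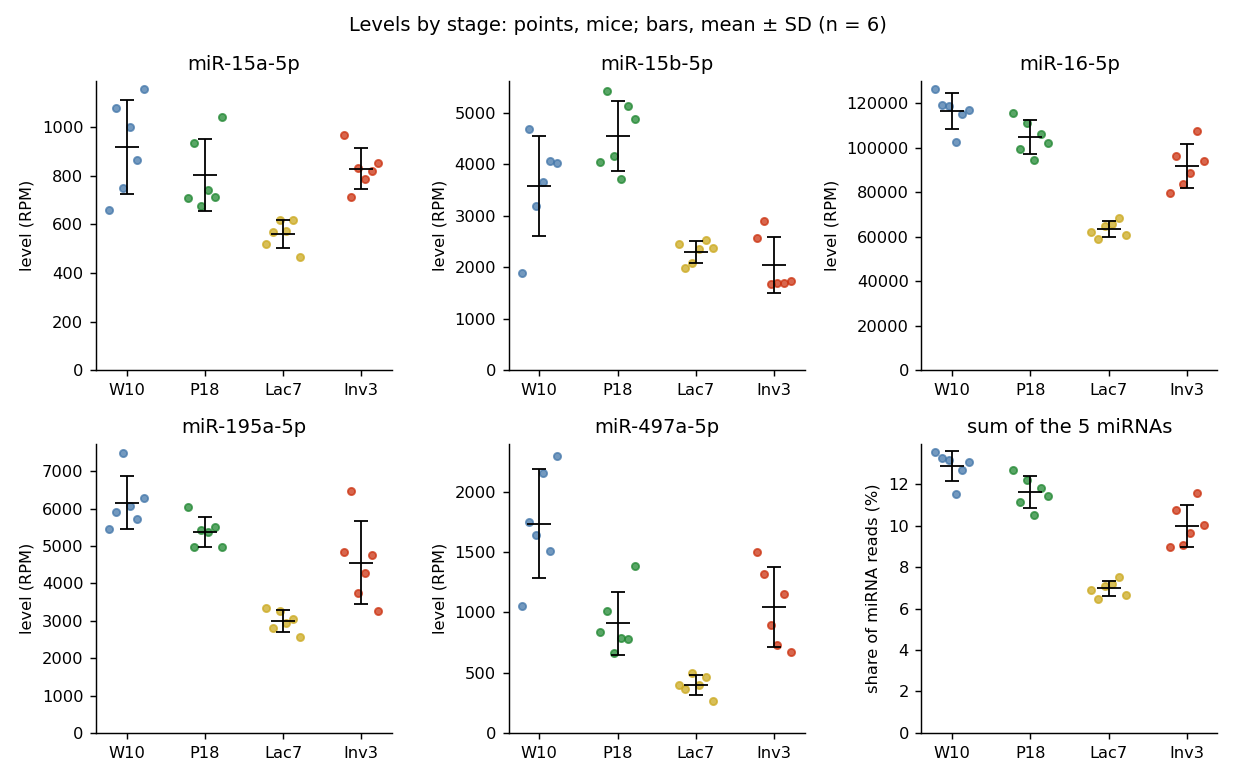
Level of each miRNA in RPM (vertical axes, from 0) in each mouse (points) at the 4 stages (horizontal axes), with the mean and SD over 6 mice as bars, and the summed share of reads of the 5 miRNAs in percent. In RPM the Lac7 mice of miR-15a-5p, miR-16-5p and miR-497a-5p sit below all mice of the other stages, while miR-15b-5p is also low at Inv3.

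From W10 to P18, the stages between which the epithelium grows, 1 of the 5 members was called, miR-497a-5p, which fell; in this comparison 29.4% of all tested miRNAs were called lower and 12.1% higher. Its log2 fold change was -0.93 ± 0.21 (SE, limma, adjusted p = 0.000650), and -0.68 ± 0.20 with size factors (adjusted p = 0.00808). miR-15b-5p was the only member with a higher mean at P18 in RPM, 0.39 ± 0.17, which did not pass the test (adjusted p = 0.0758). It did pass with size factors, at 0.64 ± 0.17 (adjusted p = 0.00405, beside 17.1% of all called higher and 22.2% lower on that scale), and in RPM without W10 mouse 2, at 0.48 (adjusted p = 0.0343). Without W10 mouse 1, the lowest of that stage, the RPM difference was 0.21 (adjusted p = 0.254). miR-15a-5p, miR-16-5p and miR-195a-5p had differences of -0.19, -0.15 and -0.19 in RPM and of 0.07, 0.10 and 0.06 with size factors. None of these passed, so their direction between W10 and P18 depended on the scale. Of all calls, 29.2% were higher at P18 in RPM and 43.5% with size factors.

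From P18 to Lac7 all 5 members fell in RPM, beside 31.4% of all tested miRNAs called lower and a median of -0.34 over all. The log2 fold changes were -1.18 ± 0.21 for miR-497a-5p, -0.98 ± 0.17 for miR-15b-5p, -0.85 ± 0.12 for miR-195a-5p, -0.72 ± 0.09 for miR-16-5p and -0.51 ± 0.14 for miR-15a-5p (SE). The adjusted p ran from 1.64e-07 for miR-16-5p to 0.00348 for miR-15a-5p. In each of the 5 the Lac7 mice lay below all P18 mice, as they did for 19.1% of the tested miRNAs. With size factors 4 of the 5 still fell, by 0.87, 0.68, 0.55 and 0.41 on the log2 scale in the order above, beside 24.1% of all called lower. The exception was miR-15a-5p, at -0.20 ± 0.13 (adjusted p = 0.204), and the Lac7 mice lay below all P18 mice in the same 4, as for 12.1% of all tested on that scale. The share of calls that were higher at Lac7 was 30.5% in RPM and 44.5% with size factors.

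From Lac7 to Inv3, when milk removal has stopped, 4 of the 5 rose, beside 27.9% of all tested miRNAs called higher. miR-497a-5p rose 2.63-fold (log2 1.36 ± 0.21, adjusted p = 6.68e-06). miR-195a-5p rose by 0.58 ± 0.12 (adjusted p = 0.000362), miR-15a-5p by 0.57 ± 0.14 (0.00138) and miR-16-5p by 0.52 ± 0.09 (1.92e-05). miR-15b-5p stood at -0.21 ± 0.17 (adjusted p = 0.358). The same 4 passed with size factors, with smaller differences of 1.18, 0.40, 0.39 and 0.35 and adjusted p from 2.06e-05 to 0.0142, beside 23.2% of all called higher. For 3 members, miR-15a-5p, miR-16-5p and miR-497a-5p, the Inv3 mice lay above all Lac7 mice in RPM, as they did for 13.6% of all tested; with size factors this held for miR-497a-5p alone, and for 10.1% of all tested.

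Over the longer span from W10 to Lac7 all 5 members were lower in RPM, beside 48.5% of all tested miRNAs and a median of -0.66 over all. miR-497a-5p fell 4.37-fold, a log2 fold change of -2.11 ± 0.21 (adjusted p = 1.52e-09), and miR-195a-5p fell 2.06-fold. In 4 of the 5, all but miR-15b-5p, the Lac7 mice lay below all W10 mice, as they did for 29.4% of the tested miRNAs. With size factors this held for 2, miR-195a-5p and miR-497a-5p, beside 18.0% of all tested. On that scale 3 members passed: miR-497a-5p at -1.55 ± 0.20 (adjusted p = 1.65e-07), miR-195a-5p at -0.49 ± 0.13 (0.00241) and miR-16-5p at -0.32 ± 0.11 (0.0146), beside 37.9% of all called lower. miR-15a-5p went from -0.69 in RPM to -0.14 with size factors and miR-15b-5p from -0.59 to -0.04, and neither then passed (adjusted p = 0.369 and 0.874). Of all calls, 27.3% were higher at Lac7 in RPM and 38.9% with size factors.

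Whether Inv3 had returned to W10 levels depended on the scale. In RPM 4 members were lower at Inv3 than at W10, beside 31.2% of all tested: miR-15b-5p at -0.80 ± 0.17, miR-497a-5p at -0.75 ± 0.21, miR-195a-5p at -0.46 ± 0.12 and miR-16-5p at -0.35 ± 0.09 (adjusted p from 0.000629 to 0.00595). miR-15a-5p stood at -0.12 ± 0.14 (adjusted p = 0.498). With size factors limma called 0 of the 5, and 1 had an unadjusted p under 0.05; edgeR and DESeq2 on the recovered reads also called 0. On the size factor scale 29.8% of all tested miRNAs were called in either direction. The share of calls that were higher was 20.2% in RPM and 43.8% with size factors. Against P18, 1 member was lower at Inv3, beside 17.6% of all tested. This was miR-15b-5p, with a log2 fold change of -1.18 ± 0.17 (adjusted p = 8.26e-06), or -1.06 ± 0.17 with size factors (3.72e-05, beside 13.8% of all called lower). Its mice did not overlap on either scale, as was so in this direction for 8.27% of all tested in RPM and 6.25% with size factors. Without Inv3 mouse 2 miR-195a-5p was called as well (-0.38, adjusted p = 0.0126), and without Inv3 mouse 5 so was miR-16-5p (-0.24, adjusted p = 0.0376).

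**Figure D2:**
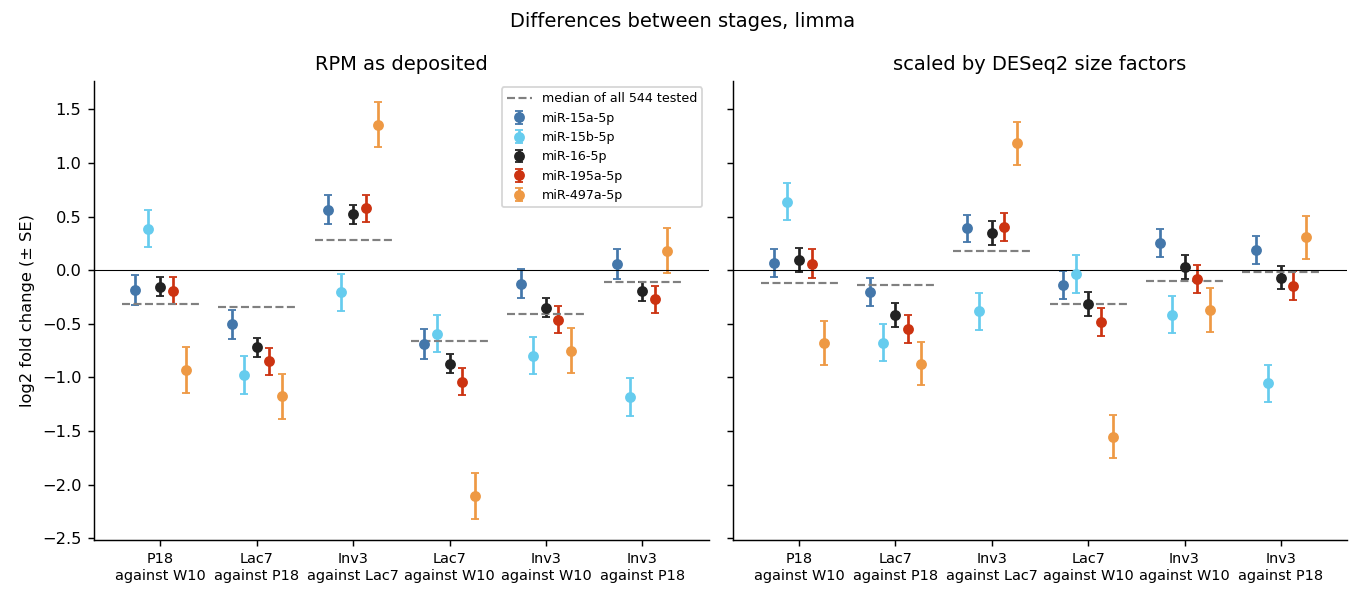
Log2 fold change with its SE (vertical axis) of each miRNA (points, by colour) in the 6 comparisons of stages (horizontal axis), from RPM as deposited (left) and after scaling by DESeq2 size factors (right); dashed lines are the medians of all 544 tested miRNAs. miR-497a-5p lies farthest from 0 in both panels for Lac7 against W10, and miR-15b-5p alone is below 0 for Inv3 against Lac7.

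The lists of miRNAs known to mark cell types also moved between stages in RPM, and are not given with size factors. The 5 epithelial miRNAs of the miR-200 family had mean sums of 16770, 57590, 122500 and 48610 RPM in the order W10, P18, Lac7, Inv3, with ranges of 14820 to 20700, 48820 to 63530, 113700 to 133100 and 23150 to 78250. The 3 lymphocyte miRNAs ran the other way, at 4214, 2059, 573 and 2371 RPM. So did the 3 of the list named myeloid, at 38630, 16930, 6952 and 18070. Most of the myeloid sum was miR-142a-5p, a leukocyte miRNA not confined to myeloid cells, at 31990, 13920, 5354 and 13910 RPM. At Inv3 miR-142a-3p and miR-142a-5p were lower than at W10 (log2 -1.02 and -1.19, limma adjusted p = 0.00758 and 0.0041). The third, miR-223-3p, stood at -0.01 (limma adjusted p = 0.969). The 5 stromal miRNAs summed to 181800, 201000, 160800 and 300600 RPM, but this list split. miR-143-3p held most of the Inv3 sum, at 246200 RPM, and with miR-145a-5p was higher at Inv3 than at W10 (log2 1.41 and 0.71, limma adjusted p = 1.00e-12 and 0.00137). miR-199a-3p, miR-199a-5p and miR-214-3p were lower at Inv3 than at W10, by log2 -0.76, -0.65 and -1.34 in RPM (adjusted p from 2.41e-05 to 0.000401). From P18 to Lac7 these 3 fell, by -1.37, -1.05 and -1.61 (adjusted p from 1.01e-09 to 1.47e-05), while miR-143-3p and miR-145a-5p stood at -0.07 and -0.19 (adjusted p = 0.525 and 0.380). The 2 endothelial miRNAs summed to 15820, 15610, 18470 and 15590 RPM. Of the 5 red blood cell miRNAs, 4 were in the table and summed to 1207, 648, 997 and 855 RPM; of these miR-144-3p alone passed between P18 and Lac7, as higher (1.56, adjusted p = 1.10e-05). Every list member in the table had reads at every stage. Their part in the differences of the family was not tested.

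Ratios between members within a library do not depend on the scale. Over 5 ratios and 6 pairs of stages, 10 of 30 differences passed (two-sided exact permutation over every split of the 12 mice into 6 and 6, Benjamini-Hochberg adjusted over the 30). The smallest p that these splits allow is 0.00216. How often ratios between other miRNAs pass was not tested.

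miR-195a-5p and miR-497a-5p lie 241 bases apart, yet their ratio changed with stage. miR-195a-5p exceeded miR-497a-5p by 3.74-fold ± 0.969 at W10, 6.32-fold ± 1.71 at P18, 7.73-fold ± 1.22 at Lac7 and 4.52-fold ± 0.883 at Inv3 (SD, n = 6). The Lac7 ratios, from 6.55 to 9.81, lay above all W10 ratios (2.74 to 5.16) and all Inv3 ratios (3.23 to 5.83). The log2 ratio was 1.07 higher at Lac7 than at W10 and 0.78 lower at Inv3 than at Lac7 (exact permutation, adjusted p = 0.0130 for both). The rise of 0.74 from W10 to P18 passed narrowly (exact permutation, adjusted p = 0.0455) and did so in 2 of the 12 sets that left out 1 mouse of these stages, those without W10 mouse 1 or P18 mouse 6; in the others the adjusted p reached 0.0974. It did not pass when medians were compared in place of means (exact permutation, adjusted p = 0.0584).

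miR-15a-5p and miR-15b-5p, the closely alike products of chromosomes 14 and 3, stood farthest apart in pregnancy and closest at involution. miR-15b-5p exceeded miR-15a-5p by 3.88-fold ± 0.676 at W10, 5.75-fold ± 0.885 at P18, 4.15-fold ± 0.668 at Lac7 and 2.49-fold ± 0.804 at Inv3 (SD, n = 6). At Inv3, 5 mice had ratios from 2.0 to 2.64 and mouse 2 had 4.06. From P18 to Inv3 the log2 ratio of miR-15a-5p to miR-15b-5p rose by 1.25 (exact permutation, adjusted p = 0.0130), and from Lac7 to Inv3 by 0.77 (0.0278). From W10 to P18 it fell by 0.57 (exact permutation, adjusted p = 0.0217). These 3 differences passed with any 1 mouse left out. The differences of 0.47 from P18 to Lac7 (exact permutation, adjusted p = 0.0406) and of 0.67 from W10 to Inv3 (0.0433) did not. The first was lost without P18 mouse 2, 3 or 5 or Lac7 mouse 2 or 3 (adjusted p up to 0.0649). The second was kept without W10 mouse 1 or Inv3 mouse 2 and lost without any of the other 10 mice (up to 0.0714), and it was lost with medians in place of means (0.0584).

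miR-16-5p is made beside both miR-15a and miR-15b. Its ratio to miR-15a-5p averaged 133 ± 36.4, 134 ± 28.4, 114 ± 10.2 and 112 ± 19.5 at W10, P18, Lac7 and Inv3 (SD, n = 6), and none of the 6 differences passed (exact permutation, adjusted p from 0.244 to 0.887). Its ratio to miR-15b-5p averaged 35.9 ± 15.9, 23.4 ± 4.02, 27.8 ± 2.23 and 47.4 ± 12.7, and was higher at Inv3 than at P18 and Lac7. On the log2 scale miR-15b-5p lost 0.99 against miR-16-5p from P18 to Inv3 and 0.73 from Lac7 to Inv3 (exact permutation, adjusted p = 0.0130 for both). The ratio of miR-16-5p to miR-195a-5p averaged 19.1 ± 2.64, 19.5 ± 1.10, 21.4 ± 1.88 and 21.0 ± 4.97, and no difference passed (exact permutation, adjusted p from 0.153 to 0.759). The SD of that log2 ratio was 0.34 at Inv3 and at most 0.20 at the other stages.

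**Figure D3:**
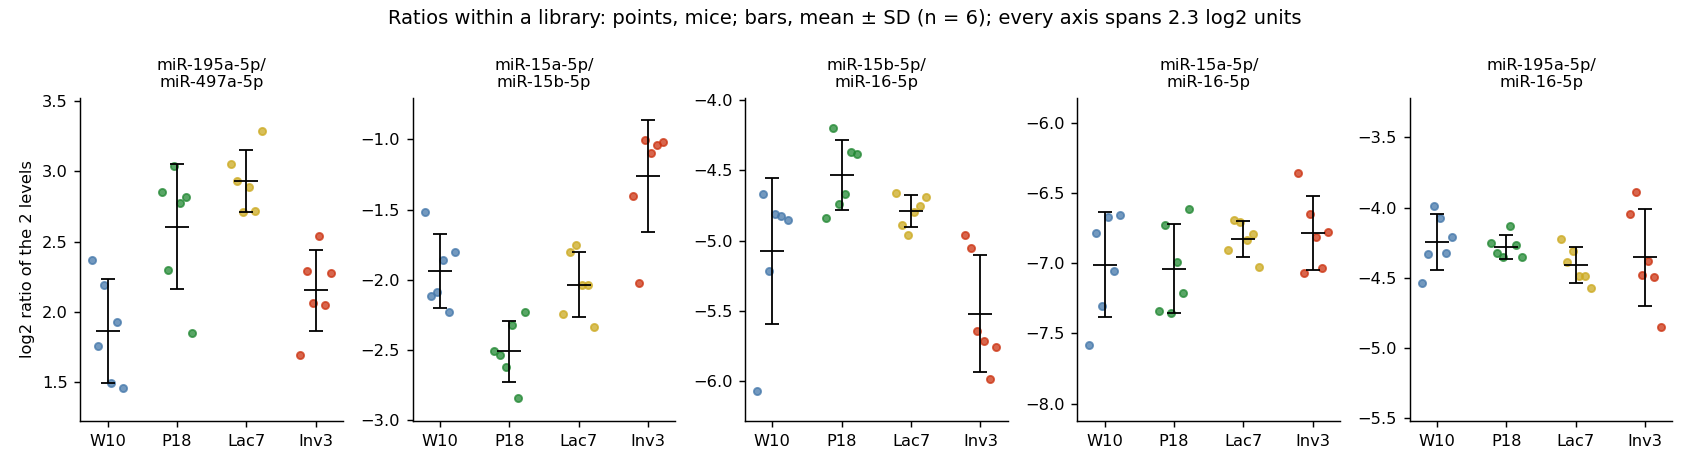
Log2 ratio of pairs of members within each library (vertical axes, each spanning 2.3 log2 units) in each mouse (points) by stage (horizontal axes), with mean and SD over 6 mice. The ratio of miR-195a-5p to miR-497a-5p is highest at Lac7, that of miR-15a-5p to miR-15b-5p is lowest at P18 and highest at Inv3, and the 2 right panels show no stage that passed the test.

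Some pairs of members from different chromosomes also varied together between mice of a stage. After the stage means were subtracted, 2 of 10 pairs of members varied together over the 24 libraries (100000 permutations within stages, Benjamini-Hochberg adjusted over the 10). The share among pairs of other miRNAs was not tested, so the count says nothing particular to the family. The strongest was miR-15a-5p with miR-497a-5p, from chromosomes 14 and 11, with Pearson's r = 0.71 (permutation, adjusted p = 0.0019) and Spearman's rho = 0.65 (0.0149). It was positive within each of the 4 stages, 0.58 without the 2 libraries farthest from the median of miR-15a-5p, and 0.66 with size factors (adjusted p = 0.0084). With any 1 mouse left out, P18 mouse 6 included, it lay between 0.64 and 0.81 and passed. The same mouse was highest for both at 4 of 4 stages, namely mouse 7 of W10, 6 of P18, 3 of Lac7 and 1 of Inv3, and the same mouse was lowest at 3. W10 mouse 1, the lowest for both, was the highest for miR-16-5p.

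The other pair was miR-15b-5p with miR-497a-5p, at r = 0.60 (permutation, adjusted p = 0.0319) and rho = 0.59 (0.0415), and r = 0.46 without the 2 farthest libraries. It did not pass with size factors (adjusted p = 0.0645), nor without W10 mouse 1 (r = 0.48, adjusted p = 0.211) or Inv3 mouse 1, 3 or 4 (0.0530 to 0.0645). The neighbours miR-195a-5p and miR-497a-5p had r = 0.51 and rho = 0.48 (permutation, adjusted p = 0.0856 and 0.110), and 0.36 without 2 libraries. That pair passed without W10 mouse 3 (r = 0.55, adjusted p = 0.0455) or P18 mouse 6 (r = 0.61, adjusted p = 0.0321), and miR-15a-5p with miR-15b-5p (r = 0.50, adjusted p = 0.0856) passed without Inv3 mouse 2 (r = 0.67, adjusted p = 0.0118) and had r = 0.26 without W10 mouse 1 (adjusted p = 0.407). miR-16-5p and miR-195a-5p, the most alike in sequence, had r = 0.23 (permutation, adjusted p = 0.492).

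The same residuals were set against the read depth and the 8 lists of cell type miRNAs, a family of 45 relations added after the data were seen. One passed by both Pearson's r and Spearman's rho, miR-15b-5p with the myeloid list (r = 0.59, rho = 0.62, permutation, adjusted p = 0.0036 and 0.0162, r = 0.59 without 2 libraries). The sum of that list is mostly miR-142a-5p, and relations to its single miRNAs, or to a cell type, were not tested. The myeloid list had r = 0.47 with miR-15a-5p and 0.44 with miR-497a-5p (rho = 0.48 for both, permutation, adjusted p = 0.139 and 0.144), and neither passed. The red blood cell list with miR-15a-5p passed by rho alone (r = 0.64, rho = 0.73, permutation, adjusted p = 0.0650 and 0.0241). miR-195a-5p had r = 0.68 with the lymphocyte list, -0.71 with the epithelial list, -0.71 with the endothelial list and -0.51 with the red blood cell list, none of which passed (permutation, adjusted p = 0.0650 for each). The rho values of these 4 were 0.64, -0.48, -0.55 and -0.45 (permutation, adjusted p from 0.0779 to 0.265). With depth, miR-15b-5p had r = 0.47 and rho = 0.40 (permutation, adjusted p = 0.205 and 0.312), and the other members lay between -0.06 and 0.39. The part of these measures in the relations between members was not tested.

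**Figure D4:**
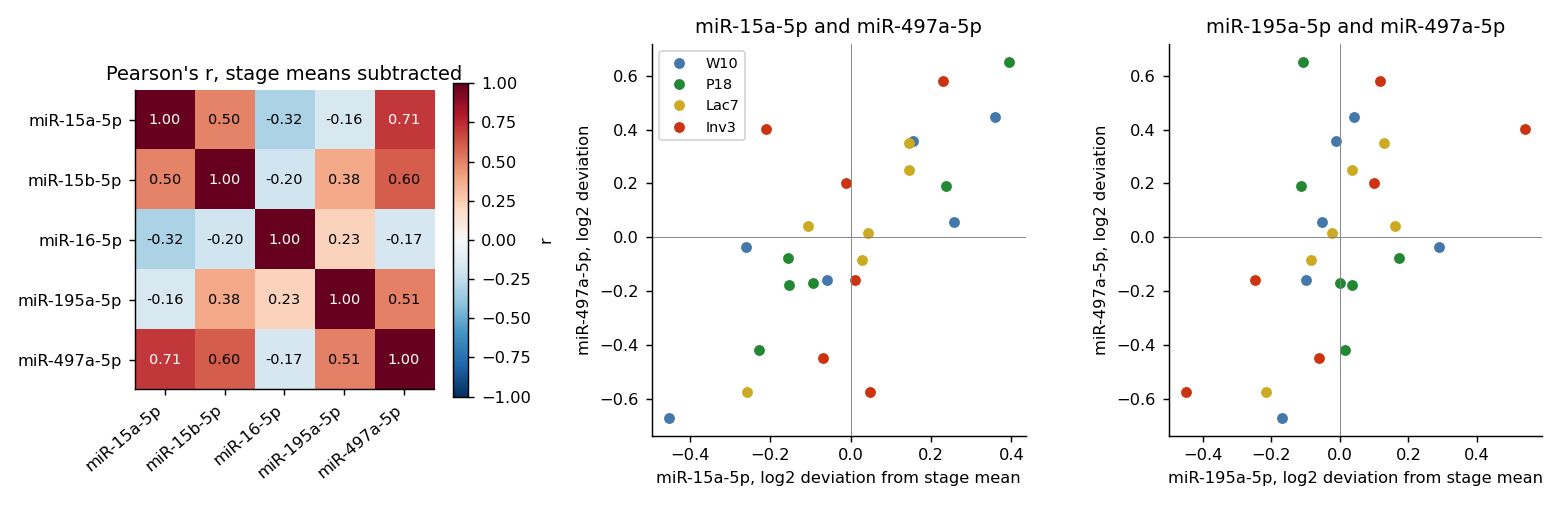
Pearson's r between the members after subtracting stage means (left, 24 libraries, colour scale from -1 to 1), and the log2 deviations from the stage mean of each mouse for miR-15a-5p against miR-497a-5p (middle) and for the neighbours miR-195a-5p against miR-497a-5p (right), coloured by stage. The first pair has r = 0.71 and the second 0.51.

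Over all 24 libraries, stages included, each member's pattern was compared with those of the 183 other miRNAs, members left out, that averaged 100 RPM or more at any stage. miR-497a-5p was most like miR-199a-5p (Pearson's r = 0.97 on log2(RPM + 1)), miR-23a-3p (0.94) and miR-214-5p (0.92). miR-16-5p was most like its seed relative miR-322-5p (0.94), then miR-199a-3p (0.92) and miR-17-3p (0.90). miR-195a-5p was most like miR-125b-5p (0.93), miR-199a-3p (0.92) and miR-342-3p (0.91). miR-15a-5p was most like miR-223-3p (0.85), miR-199a-5p (0.84) and miR-214-5p (0.83), though the member miR-497a-5p was closer to it than these (0.88). Between the other members r ran no higher than the 0.89 of miR-16-5p with miR-195a-5p. miR-15b-5p stood apart, with miR-204-5p (0.82), its own opposite arm miR-15b-3p (0.81) and miR-19a-3p (0.80). These miRNAs share libraries, totals and the 4 stages, so r is a description. miR-199a-3p and miR-199a-5p are in the stromal list, whose miR-143-3p and miR-145a-5p did not fall with them from P18 to Lac7, miR-223-3p is in the myeloid list and miR-342-3p in the lymphocyte list.

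The opposite arms of the same precursors were far rarer. miR-15b-3p, the most abundant, averaged 111 ± 30.3, 119 ± 31.5, 45.1 ± 10.0 and 69.3 ± 12.8 RPM at W10, P18, Lac7 and Inv3 (SD, n = 6), from 23 to 165 reads per library. Like its 5p arm it fell from P18 to Lac7 (-1.37 ± 0.21, limma adjusted p = 6.26e-06) and was lower at Inv3 than at P18 (-0.75 ± 0.21, 0.00853), on both scales. Unlike the 5p arm, it rose from Lac7 to Inv3 in RPM (0.62 ± 0.21, adjusted p = 0.0175), though not with size factors (0.45, adjusted p = 0.0931), and the difference between the arms was not tested.

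miR-195a-3p averaged 71.4 ± 15.3, 51.0 ± 12.1, 22.5 ± 6.18 and 46.8 ± 14.0 RPM (SD, n = 6). It fell from P18 to Lac7 and rose from Lac7 to Inv3, by log2 -1.15 ± 0.22 and 1.02 ± 0.22 (adjusted p = 0.000117 and 0.000464), and passed with size factors too. miR-497a-3p averaged 16.9 ± 2.07, 8.94 ± 4.69, 4.53 ± 1.11 and 10.6 ± 6.78 RPM, or 2 to 25 reads per library. The share of its precursor's reads on the 3p arm lay between 0.966% and 1.13% at the 4 stages. miR-15a-3p, at 1 to 15 reads per library, averaged 7.25, 12.5, 5.03 and 9.91 RPM, and was higher at P18 than at W10 (0.73 ± 0.29, adjusted p = 0.0457, and 0.94 ± 0.30 with size factors, adjusted p = 0.0133). Its difference from miR-15a-5p was not tested.

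The 3p arms of the 2 miR-16 genes differ in sequence and so can be told apart, though both were near the limit of depth. miR-16-1-3p (chromosome 14) averaged 16.6 ± 7.02, 8.98 ± 4.58, 11.4 ± 3.70 and 20.5 ± 7.25 RPM, from 5 to 32 reads per library, with P18 mouse 2 at 17.6 RPM and the other P18 mice at 9.44 or less. miR-16-2-3p (chromosome 3) averaged 7.18 ± 4.45, 3.77 ± 0.762, 2.87 ± 1.34 and 1.33 ± 0.768 RPM (SD, n = 6), from 0 to 17 reads. From P18 to Inv3 miR-16-1-3p rose (1.12 ± 0.34, adjusted p = 0.0136), as it did with size factors (1.24, adjusted p = 0.00704). miR-16-2-3p had 3 to 5 reads in each P18 library and 0 to 2 in each Inv3 library, under the 3 reads that a count of 0 allows, and passed the test as lower (adjusted p = 0.0175, and 0.0348 with size factors). Of the 6 opposite arms, 3 fell from P18 to Lac7 on both scales, namely miR-15a-3p, miR-15b-3p and miR-195a-3p. Beside them, 31.4% of all tested miRNAs were called lower in RPM and 24.1% with size factors. miR-497a-3p had an RPM difference of -0.70 that did not pass (limma adjusted p = 0.138).

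Of the relatives with the same seed, miR-322-5p (Mir322, chrX:53054255-53054349, minus strand) is the mouse counterpart of human miR-424, and the cluster that holds it is known for a part in the regression of the mammary epithelium. It ran from 1796 to 3377 RPM at W10 (median 2604), from 1613 to 2333 at P18 (median 1933), from 743 to 1031 at Lac7 (median 792) and from 1407 to 1982 at Inv3 (median 1592). No Lac7 mouse overlapped another stage. The log2 fold changes were -1.25 ± 0.13 for Lac7 against P18 (adjusted p = 1.27e-08), 0.97 ± 0.13 for Inv3 against Lac7 (6.68e-07) and -1.63 ± 0.13 for Lac7 against W10 (2.23e-11), and -0.95, 0.80 and -1.08 with size factors, all of which passed. Its level at Inv3 was below that at W10 in RPM (-0.66, adjusted p = 0.000246) but not with size factors (-0.28, adjusted p = 0.143). At P18 it was likewise below W10 in RPM (-0.385, limma adjusted p = 0.0182) but not with size factors (-0.13, 0.477). miR-195b had 0 to 3 reads per library, at or under the limit of depth.

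**Figure D5:**
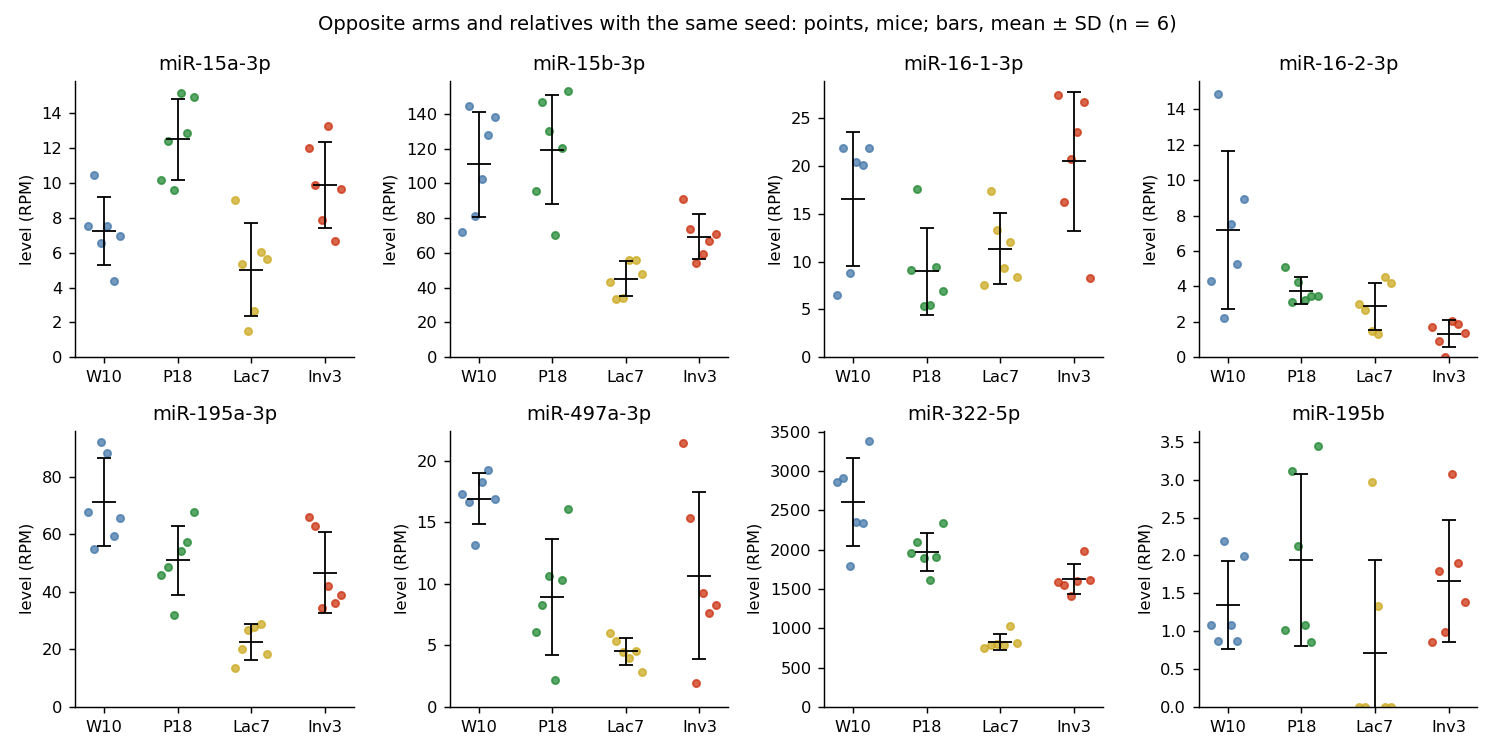
Levels in RPM (vertical axes, from 0) of the 6 opposite arms and the 2 relatives with the same seed in each mouse (points) by stage (horizontal axes), with mean and SD over 6 mice. miR-322-5p, miR-195a-3p and miR-15b-3p have their lowest mean at Lac7, and miR-16-2-3p at Inv3, where no mouse exceeds 2.05 RPM.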

How the data were processed

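Small RNA from the mammary glands of 24 mice was extracted with a mirVana kit and made into libraries with a QIAseq miRNA kit. The authors mapped reads with QuickMIRSeq to miRBase 22 (GRCm38 per the labels) and deposited RPM values. Whether molecular identifiers were counted was not given in the sources used here, so depth limits cover counting error only. Deposited RPM values of up to 100 were whole multiples of 1 read within 0.1 reads in 100% of cases, which gave read counts back. Over all 276 pairs, no 2 libraries agreed within sampling noise.

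Groups came from the labels. limma 3.58.1 (eBayes with a trend, R 4.3.3) was fitted on log2(RPM + 1) over 24 libraries and the 544 miRNAs averaging 1 RPM or more at any stage. Calls needed an adjusted p under 0.05 (Benjamini-Hochberg, two-sided). Fold changes of low miRNAs are understated on this scale. Ratios used exact permutation and residuals 100000 permutations. Other steps ran in python 3.11.15 (scipy 1.17.1, pandas 2.3.3, numpy 2.4.6, figures with matplotlib 3.10.9). The steps were tested on simulated data of P18 against W10, with miRNAs of all levels. Simulated rises and falls were balanced and every miRNA had the same dispersion. A shift of the typical miRNA between stages was therefore not simulated, and recovery at the members' own levels was not given. limma recovered 61.2% of changes of log2 1 and 94.6% of log2 2, and called 7 of 320 unchanged miRNAs. edgeR and DESeq2 recovered 63% and 59% of changes of log2 1. A smaller difference that did not pass can therefore be a miss. Alternatives were DESeq2 1.42.0 size factors, edgeR 4.0.16 TMM, edgeR and DESeq2 on recovered reads, pseudocounts of 0.1 and 10, no filter or one at 100 RPM, fits of 12 libraries, a replicate block, a fold limit of log2 1, and leaving out each mouse. The members, marker lists and tests were chosen with earlier results of these data known. Named were the members, miRNAs with the same seed, the opposite arms, and the 3 miRNAs most like each member; others only as markers. Sequences are from RefSeq and loci from GENCODE.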

Additional observations from a re-analysis of the deposited data

Results flagged for a closer look

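In the 72 groups of 6 mice examined (the members, their sum and ratios, their opposite arms and miR-322-5p, each at 4 stages), Dixon's test marked 3, where chance marks about 1 in 20. One was miR-16-1-3p in mouse 2 of P18, at 17.6 RPM with the next mouse at 9.44, or 17 and 11 reads. The other two were miR-322-5p. Mouse 5 of Lac7 had 1031 RPM, with the next mouse at 815, and mouse 5 of Inv3 had 1982 RPM, with the next at 1619. As far as the labels say, the mice of the 2 stages share only a number. The same mice were also the highest of their stage for miR-16-5p.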

How the results depend on the processing

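No call of a single member's fold change was lost when any 1 mouse was left out. The counts of members called then ran from 1 to 2 for P18 against W10 and for Inv3 against P18, and did not change for the other comparisons. Size factors, TMM, edgeR and DESeq2 alike called 2 members for P18 against W10 and 3 for Lac7 against W10. They called 0 for Inv3 against W10, where 1, 2, 2 and 1 members had an unadjusted p under 0.05. Of all 544 miRNAs they called 209 to 214, 295 to 337 and 162 to 173 in these comparisons. With a fold limit of log2 1 the counts were 0, 1, 1, 2 and 0 for P18 against W10, Lac7 against P18, Inv3 against Lac7, Lac7 against W10 and Inv3 against W10, because few differences were that large (2 and 4 members had an unadjusted p under 0.05 in the first and last). With the filter at 100 RPM, which tests the 5 members and 183 other miRNAs, 2 members were called for Inv3 against P18. Of all those tested, 101 were called.

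Signs turned under another scaling for differences that had not passed, and for miR-16-5p at Inv3. For P18 against W10 the size factor, TMM, edgeR and DESeq2 values were 0.0659, 0.1163, 0.1074 and 0.0539 for miR-15a-5p, 0.0974, 0.1479, 0.1446 and 0.0981 for miR-16-5p, and 0.0616, 0.1120, 0.1100 and 0.0635 for miR-195a-5p. For Inv3 against W10 they were 0.2544, 0.2841, 0.2703 and 0.2413 for miR-15a-5p and 0.0288, 0.0586, 0.0607 and 0.0371 for miR-16-5p. The cause was not tested.

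All miRNAs called numbered 226, 246, 255, 363, 213 and 155 in the 6 comparisons, and 127, 132, 151, 164, 123 and 101 with the filter at 100 RPM. With the fold limit, of the 544 tested, they were 150 for P18 against W10, 164 for Lac7 against P18 and 146 for Inv3 against Lac7. For Lac7 against W10, Inv3 against W10 and Inv3 against P18 they were 273, 136 and 77.

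With medians compared in place of means 8 of the 10 ratio differences passed, and with 1 mouse left out 8 to 11 did, and 1 to 3 correlations; with size factors 1 correlation did. Small ratio differences that never passed changed sign between mice: miR-15a-5p to miR-16-5p from -0.146 to 0.0392 for P18 against W10 and from -0.0406 to 0.101 for Inv3 against Lac7, and miR-195a-5p to miR-16-5p from -0.0941 to 0.0159, -0.0362 to 0.155 and -0.168 to 0.0238 for P18 against W10, Inv3 against Lac7 and Inv3 against P18.

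The labels do not say that mouse numbers link libraries of different stages, and a link for single numbers was not tested. Over 188 miRNAs, 33 pairs of libraries with the same number at different stages had a mean correlation of deviations of -0.05 (-0.79 to 0.61), against 0.00 for 183 other pairs. With the number as a replicate block, 1, 5, 4, 5, 4 and 1 members were called in the 6 comparisons, and 220, 241, 249, 347, 201 and 144 of all miRNAs. Leaving the reads of the members and of miR-322-5p out of the totals, added after the data were seen, changed no member count. Depth limits miR-195b, miR-16-2-3p and the other rare arms, and 6 mice a stage limit the ratios.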
